A study of Mus musculus with 12 samples.

Results

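Ccr9, Ccr4, Ccr7 and Cxcr4 encode chemokine receptors that place developing T cells within the thymus. Their mRNA was followed here through 4 stages of CD4 single positive (SP) thymocyte maturation on Affymetrix mouse expression arrays. Members were all probe sets that the array annotation gives to 1 of these symbols and to no other gene. That rule took 8 of the 45037 probe sets in the table, of which 5 were for Ccr9 and 1 each for Ccr4, Ccr7 and Cxcr4. No filter on low values was set, so all 8 were tested.

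The cells came from untreated C57BL/6 mice 6 to 8 weeks old, and no subset carried a genetic change. Thymi were pooled and CD4+CD8- cells negative for CD25 and NK1.1 were sorted, a gate against regulatory T cells and NKT cells. SP1 cells were Qa-2-6C10+CD69+, SP2 cells Qa-2-6C10-CD69+, SP3 cells Qa-2-6C10-CD69- and SP4 cells Qa-2+6C10-CD69-, in the order in which the study places them. Each subset had 3 arrays, numbered as biological replicates 1 to 3, and each sample was a pool of animals. For the array samples CD44 was not part of the sort, so memory T cells that had come back to the thymus were not gated out of SP4. The paper states that its SP4 array data may hold a small percentage of such mature T cells. Over all probe sets, the 4 arrays of replicate 3 stood apart from those of replicates 1 and 2.

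Chemokine receptors are G protein coupled receptors on the cell surface that let a cell move up a gradient of a secreted chemokine. CCR9 binds CCL25, which is made by thymic epithelium, and is carried by cortical thymocytes and later by T cells that home to the small intestine. CCR4 binds CCL17 and CCL22, and CCR7 binds CCL19 and CCL21 and draws positively selected thymocytes into the medulla. CXCR4 binds CXCL12 and acts with the pre-T cell receptor in the cortex.

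The main change was a fall of Ccr9 mRNA at the last step. Both brightest Ccr9 probe sets were lower in SP4 than in SP1, SP2 and SP3, by 3.71-fold and 5.55-fold against SP1. Ccr4 mRNA was 2.04-fold lower in SP4 than in SP1, Ccr7 was 1.51-fold higher and Cxcr4 1.34-fold higher. These 3 differences did not pass the test, and those of Ccr4 and Ccr7 passed when the replicate number was taken into account. The test was limma on log2(intensity + 16), with p-values adjusted by Benjamini-Hochberg over all 45037 probe sets, and a difference was called at an adjusted p under 0.05. All folds and log2 differences below are on this scale, which understates the change of dim probe sets.

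Promoter sequence was at hand for 3 of the 4 genes. It is shown for Ccr9 and Ccr4, which were lowest in SP4, and for Cxcr4, which was not. Each run holds 250 bases before and 50 after the RefSeq start (GRCm38.p6), at chr9:123766961-123767260 on the plus strand for Ccr9, chr9:114496495-114496794 on the minus strand for Ccr4 and chr1:128592250-128592549 on the minus strand for Cxcr4. Capitals mark matches on either strand to the E-box CAGNTG, bound by E proteins such as E2A and HEB, and to CACCC, a core bound by Krüppel-like factors such as KLF2.
Ccr9: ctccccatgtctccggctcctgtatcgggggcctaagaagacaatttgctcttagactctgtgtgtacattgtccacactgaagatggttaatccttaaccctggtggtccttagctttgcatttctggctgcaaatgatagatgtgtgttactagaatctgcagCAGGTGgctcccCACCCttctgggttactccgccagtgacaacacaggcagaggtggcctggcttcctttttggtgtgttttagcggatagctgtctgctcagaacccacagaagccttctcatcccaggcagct
Ccr4: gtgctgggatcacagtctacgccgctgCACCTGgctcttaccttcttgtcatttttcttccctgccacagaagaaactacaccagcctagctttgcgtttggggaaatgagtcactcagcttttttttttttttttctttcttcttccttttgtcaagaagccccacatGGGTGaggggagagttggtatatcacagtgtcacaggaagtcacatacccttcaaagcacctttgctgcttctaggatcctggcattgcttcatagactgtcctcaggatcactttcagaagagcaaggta
Cxcr4: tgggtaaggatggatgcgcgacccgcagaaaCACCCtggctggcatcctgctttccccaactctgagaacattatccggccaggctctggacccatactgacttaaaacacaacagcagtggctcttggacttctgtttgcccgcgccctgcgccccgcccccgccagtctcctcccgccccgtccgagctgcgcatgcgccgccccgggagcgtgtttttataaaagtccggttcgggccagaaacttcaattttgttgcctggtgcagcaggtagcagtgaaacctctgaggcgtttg
The Ccr9 and the Ccr4 promoter each held 1 E-box and 1 CACCC match, and the Cxcr4 promoter held 1 CACCC match and 0 E-boxes. Over 32851 mouse promoters of the same length, 51.4% held an E-box and 57.5% a CACCC match, so either motif is common. The forkhead motif TGTTTAC, bound by FOXO1, and the Runx motif TGTGGT were not in these 3 windows, and 3.65% and 16.8% of promoters held them. No motif overlapped another.

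**Figure D1:**
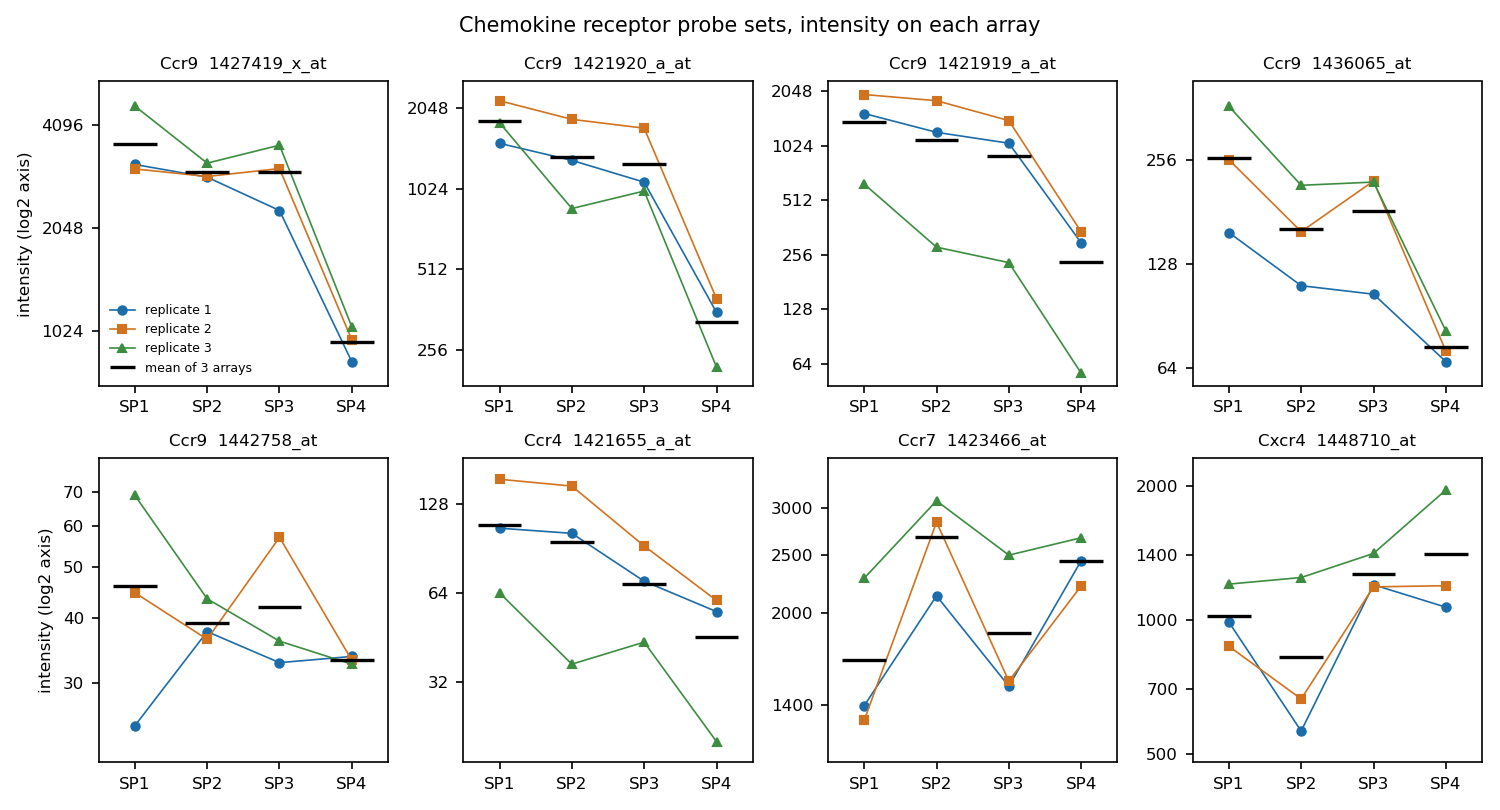
Intensity of the 8 receptor probe sets on each of the 12 arrays, on a log2 axis, by subset from SP1 to SP4. Lines join arrays of the same replicate number and black bars are means of 3 arrays. The first 4 Ccr9 panels drop at SP4 in all 3 lines, and Ccr7 is higher in SP2 than in SP1 and SP3 in all 3 lines.

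CCR9, the receptor for CCL25, gave the brightest of the 8 probe sets (1427419_x_at). Its intensity was 3136, 3044 and 4649 in SP1 cells, 2879, 2893 and 3164 in SP2 cells, 2299.6, 3051 and 3571 in SP3 cells and 829, 961 and 1049.9 in SP4 cells (replicates 1, 2 and 3). SP4 stood below every array of the other subsets, whereas SP1, SP2 and SP3 overlapped. The mean was 3609.8 ± 902 for SP1, 2979 ± 161 for SP2, 2974 ± 639 for SP3 and 947 ± 111 for SP4 (SD, n = 3 each).

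The log2 difference of this probe set was -1.89 ± 0.20 (SE) for SP4 against SP1, -1.64 against SP2 and -1.62 against SP3, with limma adjusted p-values of 0.00101, 0.00315 and 0.0176. Without replicate 3 these differences were -1.77, -1.67 and -1.55 (adjusted p = 0.00137, 0.00145 and 0.00543). The call against SP3 was lost without SP3 replicate 2, SP3 replicate 3 or SP4 replicate 2, with adjusted p-values up to 0.0883. The fall was seen in 3 of 3 replicates, by 2.13 on the log2 scale in replicate 3 and by 1.65 in replicate 2 for SP4 against SP1. Before SP4 no difference of this probe set passed. SP3 differed from SP2 by -0.02 (95% interval -0.46 to 0.41) and SP2 from SP1 by -0.25 (95% interval -0.69 to 0.19), both with an adjusted p of 1. With the replicate number as a block, which compares arrays of the same number, the interval for SP2 against SP1 was -0.54 to 0.04. In these bulk samples, fewer cells with Ccr9 mRNA and less Ccr9 mRNA per cell cannot be told apart.

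The second Ccr9 probe set (1421920_a_at) read 1516, 2189 and 1811 in SP1 cells, 1309, 1865 and 864 in SP2 cells, 1085, 1728 and 1005 in SP3 cells and 353, 398 and 220.4 in SP4 cells. Again no SP4 array reached the lowest array of another subset. Its log2 difference was -2.47 ± 0.31 for SP4 against SP1 (limma adjusted p = 0.00299), -1.98 against SP2 (adjusted p = 0.0161) and -1.92 against SP3 (adjusted p = 0.0434). The last call was lost in 10 of the 13 fits that left out 1 array or all of replicate 3, with adjusted p-values up to 0.204, and held without SP1 replicate 3, SP2 replicate 3 or all of replicate 3. The call against SP2 was lost without SP2 replicate 1, SP2 replicate 2 or SP4 replicate 3, with adjusted p-values up to 0.0836.

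The third probe set (1421919_a_at) differed as much between subsets, but its arrays split by replicate. It read 1542, 1963 and 629 in SP1 cells, 1214, 1815 and 282 in SP2 cells, 1057, 1409 and 232 in SP3 cells and 298, 343 and 56.9 in SP4 cells. Replicate 3 was the lowest array of every subset, the SE was 0.85 and the log2 difference of -2.64 for SP4 against SP1 had an adjusted p of 0.28. Leaving out arrays moved it between -3.12 and -1.91, and it passed in 1 of 13 such fits, without replicate 3 (adjusted p = 0.00116). With the replicate number as a block the limma adjusted p was 7.27e-06. Against SP2 (-2.12) and SP3 (-1.84) the blocked adjusted p-values were 5.1e-05 and 0.000533.

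The 2 dimmer Ccr9 probe sets differed from each other. 1436065_at read 158, 257 and 367 in SP1 cells, 111, 159 and 216 in SP2 cells, 105, 223 and 221 in SP3 cells and 66.6, 71.5 and 81.8 in SP4 cells, so that SP4 lay below all other arrays. Its log2 difference for SP4 against SP1 was -1.56 ± 0.34, with an adjusted p of 0.0556 without the block and 0.000154 with it. With the block SP4 also passed against SP2 (-0.95, adjusted p = 0.00805) and SP3 (-1.09, adjusted p = 0.00745). Those calls were lost without SP4 replicate 3 or all of replicate 3, and the one against SP3 also without SP3 replicate 2 (adjusted p up to 0.132). 1442758_at ranged from 24.8 to 68.8 over the 12 arrays, near the array medians of 30.5 to 32.8, and passed in no comparison with or without the block.

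Of the 5 Ccr9 probe sets, 4 were lower in SP2 than in SP1 in 3 of 3 replicates. The blocked 95% intervals of SP2 against SP1 lay below 0 for 1436065_at (-0.97 to -0.24), 1421920_a_at (-0.87 to -0.13) and 1421919_a_at (-0.91 to -0.14), and none passed after adjustment (blocked adjusted p = 0.323, 0.466 and 0.466).

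Replicate 3 parted these probe sets of 1 gene. It was the highest array of SP1 and SP4 for 1427419_x_at and 1436065_at and the lowest of every subset for 1421919_a_at. After the mean of each replicate number was taken off, the log2 values of the first 4 Ccr9 probe sets correlated between 0.93 and 0.99 over the 12 arrays. Before that step the correlation of 1436065_at with 1421919_a_at was 0.37. The suffix _x of the brightest probe set marks probes that can also bind other transcripts.

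CCR4, the receptor for CCL17 and CCL22, was read by 1 dim probe set (1421655_a_at). It gave 106, 155 and 64.1 in SP1 cells, 102, 147 and 36.8 in SP2 cells, 70.2, 92.3 and 43.7 in SP3 cells and 55.4, 60.4 and 20.1 in SP4 cells. SP4 lay below SP1 without overlap and overlapped SP2 and SP3. Within replicates 1 and 2 each stage was lower than the one before, while in replicate 3 SP3 was above SP2.

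The mean of Ccr4 was 108 ± 45.6, 95.3 ± 55.5, 68.7 ± 24.4 and 45.3 ± 22.0 in SP1, SP2, SP3 and SP4 (SD, n = 3 each). A fall of the mean at every step was seen for 6.44% of all probe sets. The log2 difference for SP4 against SP1 was -1.03 ± 0.44, lower in 3 of 3 replicates, with a limma adjusted p of 0.557. With the replicate number as a block the adjusted p was 0.00106, and this blocked call held in all 13 fits that left out arrays. For SP4 against SP2 (-0.79) the blocked adjusted p was 0.0108, and it was lost without SP2 replicate 1, SP4 replicate 2 or SP4 replicate 3 (up to 0.065). Neighbouring subsets did not pass in either fit, at -0.24 for SP2 against SP1, -0.29 for SP3 against SP2 and -0.50 for SP4 against SP3.

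CCR7, the receptor for CCL19 and CCL21, did not follow a single direction (1423466_at). Its intensity was 1395, 1318 and 2284 in SP1 cells, 2134, 2837 and 3082 in SP2 cells, 1505, 1535 and 2497 in SP3 cells and 2444, 2217 and 2671 in SP4 cells. The subsets overlapped, but within each replicate SP2 was the highest or, in replicate 1, SP4 was. The mean was 1666 ± 537 for SP1, 2684 ± 492 for SP2, 1846 ± 565 for SP3 and 2444 ± 227 for SP4 (SD, n = 3 each).

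SP2 exceeded SP1 in Ccr7 in 3 of 3 replicates, by 0.71 ± 0.25 on the log2 scale and by 1.10 in replicate 2 against 0.43 in replicate 3. The unadjusted limma p was 0.0158 and the adjusted p was 1, or 0.183 with the block, so the difference did not pass. SP3 was below SP2 in 3 of 3 replicates (-0.56) and SP4 above SP3 in 3 of 3 (0.44), and neither passed in either fit. SP4 against SP1 (0.59) had an adjusted p of 0.565 without the block and 0.0432 with it, and the blocked call was lost in 10 of 13 fits that left out arrays, with adjusted p-values up to 0.221. It held without SP1 replicate 3, SP2 replicate 2 or SP4 replicate 3. Set against the mean of SP1 and SP3, SP2 was higher by 0.64 (blocked adjusted p = 0.134). Of all probe sets, 28% had their highest mean in SP2.

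CXCR4, the receptor for CXCL12, had its lowest mean in SP2 (1448710_at). It read 991, 874 and 1206 in SP1 cells, 564, 666 and 1248 in SP2 cells, 1202, 1189 and 1414 in SP3 cells and 1070.3, 1196 and 1964 in SP4 cells. The means were 1024 ± 168, 826 ± 369, 1268 ± 126 and 1410.0 ± 484 in that order (SD, n = 3 each). SP2 was below SP1 in replicates 1 and 2 only, for in replicate 3 SP2 was 0.05 above SP1 on the log2 scale. It was below SP3 and below SP4 in 3 of 3 replicates.

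Cxcr4 in SP4 was above SP2 in 3 of 3 replicates, by 0.79 ± 0.30, with an adjusted p of 0.585 without the block and 0.0214 with it. That blocked call was lost without SP2 replicate 1, SP2 replicate 2, SP4 replicate 2, SP4 replicate 3 or all of replicate 3 (adjusted p up to 0.138). SP4 against SP1 differed by 0.42 (95% interval -0.23 to 1.06) and SP2 against SP1 by -0.38 (95% interval -1.03 to 0.27, or -0.73 to -0.02 with the block), and neither passed in either fit. For SP3 against SP2 the difference was 0.69 and the blocked adjusted p was 0.139.

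**Figure D2:**
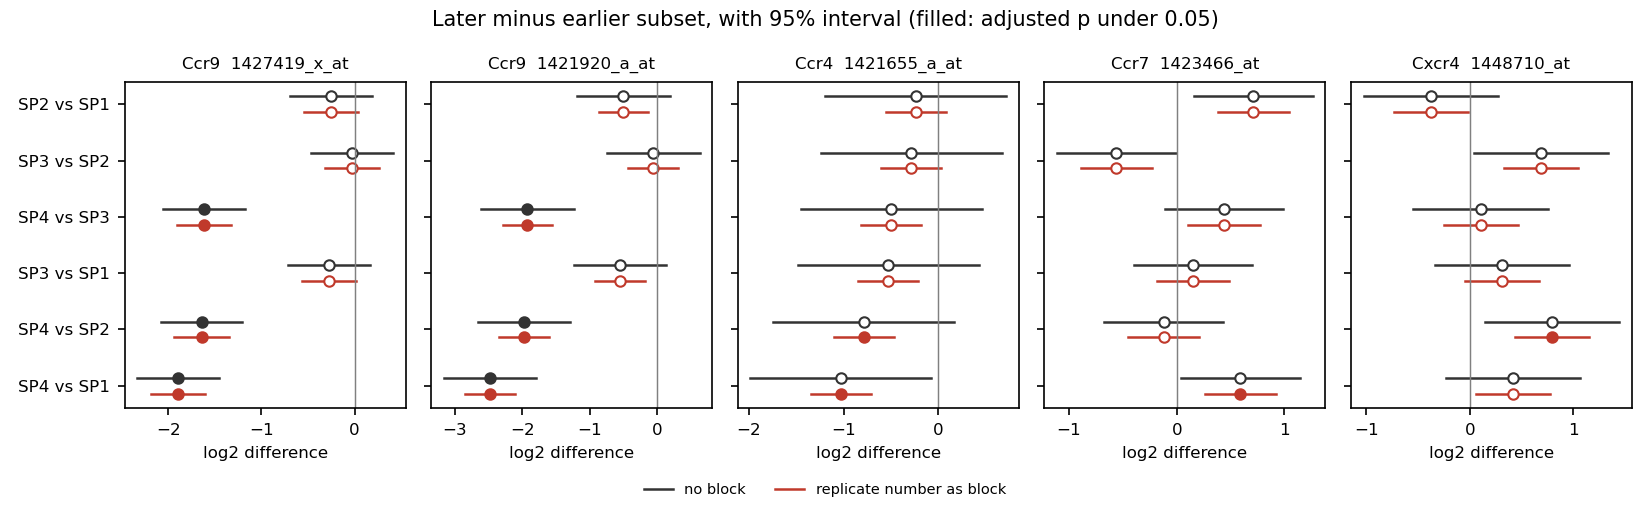
Log2 difference of the later minus the earlier subset for 5 receptor probe sets, with 95% intervals, in the 6 comparisons. Black is the fit without the block and red the fit with it, and filled circles passed at an adjusted p under 0.05. Both Ccr9 probe sets are filled in the 3 comparisons with SP4 and open in the others.

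Counts over the 8 probe sets stood as follows. For SP4 against SP1, 2 passed, both of Ccr9 and both lower, against 1.08% of all probe sets and 0.22% in the lower direction. With the block 6 of 8 passed, 5 lower and Ccr7 higher, against 5.16% of all and 1.77% in the lower direction. For SP4 against SP2, the same 2 passed, against 0.557% of all and 0.0799% in the lower direction. With the block 6 passed, the first 4 of Ccr9 and Ccr4 lower and Cxcr4 higher, against 2.65% of all and 0.808% in the lower direction. For SP4 against SP3, the same 2 passed, against 0.16% of all and 0.0111% in the lower direction, and with the block 4 passed, all of them Ccr9 and lower, against 1.16% and 0.264%. The arrays of SP4 and SP1 did not overlap for 5 of the 8, against 12.5% of all probe sets.

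Before SP4 no receptor probe set passed. Over all probe sets 0% passed for SP2 against SP1, 0% for SP3 against SP2 and 0.0111% for SP3 against SP1. With the block these shares were 0.00888%, 0.22% and 0.329%, and still 0 of the 8 passed. At an unadjusted p under 0.05, 2.75% of all probe sets reached SP2 against SP1, among them Ccr7, and 3.02% reached SP3 against SP2, among them Ccr7 and Cxcr4.

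A slope over the 4 stages was also fitted for each gene. For Ccr9 the slope was -0.57 per stage on the log2 scale (1427419_x_at, adjusted p = 0.00117) and -0.75 (1421920_a_at, adjusted p = 0.00379). Of all probe sets 1.1% passed, or 5.37% with the block. Most of the Ccr9 slope came from the last step. From step to step 1427419_x_at differed by -0.25, -0.02 and -1.62, and 1421920_a_at by -0.50, -0.05 and -1.92. Ccr4 had a slope of -0.34 (adjusted p = 0.521, blocked 0.000792), Cxcr4 of 0.19 (0.691, blocked 0.0499) and Ccr7 of 0.12 (0.908, blocked 0.215). The blocked call of Cxcr4 was lost in 10 of 13 fits that left out arrays (adjusted p up to 0.225) and held without SP2 replicate 2, SP2 replicate 3 or SP3 replicate 3. With the replicate means taken off, Ccr9 (1427419_x_at) correlated with Ccr4 at 0.88, with Ccr7 at -0.43 and with Cxcr4 at -0.58 over the 12 arrays, and Ccr7 with Cxcr4 at -0.33. Before that step these were 0.41, -0.22, -0.30 and 0.16 in that order. These arrays share the 4 subsets, so the values describe the profiles only.

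The sort was read in the mRNA of its markers. The probe set for H2-Q7 and H2-Q9, which encode Qa-2, averaged 415, 522, 625 and 2201 from SP1 to SP4, as the gate sets. Cd4 lay between 650.0 and 774, and the summed CD4 SP markers between 17681 and 23131. Cd69 mRNA was 776 in SP4 and 613 in SP3 and so did not follow the CD69 gate. Cd8a mRNA averaged 635, 129.8, 938 and 207 from SP1 to SP4 although CD8+ cells were gated out.

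Markers of cortical double positive thymocytes had their lowest mean sum in SP2, the subset with the highest Ccr7 and the lowest Cxcr4 mean. Of 13 listed genes 12 were measured and none was at 0. In each comparison of 2 subsets 0 of the 12 passed, and with the block 2 were higher in SP3 than in SP2 and 1 was lower in SP4 than in SP3. Of all 18193 genes, 0 passed without the block for SP2 against SP1 or SP3 against SP2. For SP4 against SP1 222 were higher and 54 lower. With the block, 20 were higher and 31 lower for SP3 against SP2, and 221 higher and 51 lower for SP4 against SP3. Their summed intensity per array was 2468 to 9039.5 in SP1, 2404 to 3720 in SP2, 3706 to 15479 in SP3 and 2388 to 4936 in SP4. The means were 6794, 2845, 9599 and 4007 from SP1 to SP4, lower in SP2 and SP4, where the Ccr7 means were higher, while Cxcr4 had its highest mean in SP4. Replicate 3, with 1 array a subset, had sums between 2388 and 3706. In that replicate Ccr7 was higher in SP2 than in SP1 by 0.43 on the log2 scale and Cxcr4 by 0.05. Ccr9 was lower in SP4 than in SP1 by 2.13. The part of these cells in the Ccr9, Ccr7 and Cxcr4 differences was not tested.

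Regulatory T cell markers (9 of 10 measured) also summed highest in SP2, at 4543 to 7827, and lowest in SP3, at 2391 to 4208, and like Ccr7 were higher in SP2 than in SP1 and in SP4 than in SP3 in 3 of 3 replicates. Foxp3, the defining factor, averaged 20.4, 30.7, 39.3 and 89.1 from SP1 to SP4 and so did not follow the sum. The log2 difference of Foxp3 for SP4 against SP1 was 1.48 (limma adjusted p = 0.0361). Foxp3 was the only 1 of the 9 that passed for SP4 against SP1, and 4 were higher with the block. Of the 9 differences 5 were above 0 and 4 below. Among all 18193 genes 222 were higher and 54 lower, or 757 and 346 with the block. Markers of activated or memory T cells, NKT cells and myeloid cells had their highest mean sums in SP4, the subset with the least Ccr9. NKT markers (7 of 8 measured) summed to 1057 to 1490 in SP4 against 197 to 457 in SP1. Activated or memory markers (9 of 10) summed to 2049 to 2730 in SP4 against 582 to 2204 in SP1, and myeloid markers (10 of 10) to 1158 to 2088 in SP4 against 316 to 1191 in SP1. The part of these cells in the receptor differences was not tested. B cell (7 of 8 measured), stromal (10 of 10) and erythroid markers (2 of 6) summed to at most 505, 290.5 and 23.3 on any array. The erythroid sum rests on Hba-a1 and Alas2 only.

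**Figure D3:**
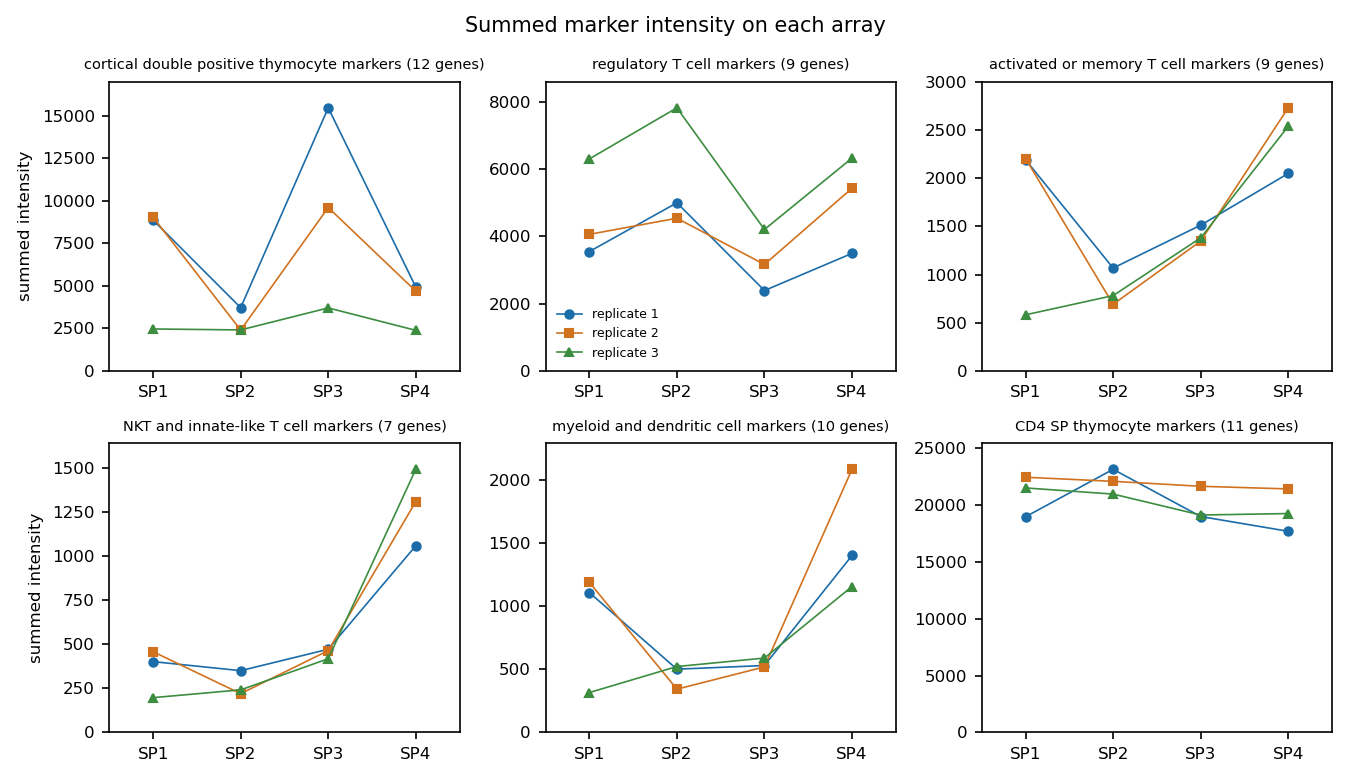
Summed intensity of 6 marker lists on each array, by subset from SP1 to SP4, with lines joining arrays of the same replicate number. Double positive markers are low in SP2 and SP4 in replicates 1 and 2 and low throughout in replicate 3, and NKT markers are highest in SP4.

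The genes closest to each receptor in profile were read from 7182 genes with a mean over 100 (7183 for Ccr4), by Pearson correlation over the 12 arrays after the replicate means were taken off. Closest to Ccr9 were Bcl2l1 (0.97), which encodes the survival factor Bcl-xL, Lztfl1 (0.96), Tmcc3 (0.95), Ldhb (0.94), a lactate dehydrogenase subunit, and Snx15 (0.94). With the replicate means left in, these were 0.71, 0.95, 0.83, 0.91 and 0.94 in that order. Lztfl1 averaged 983, 791, 610.2 and 276 from SP1 to SP4 and was lower in SP4 than in SP1 by 1.76 (adjusted p = 0.00515), and Ldhb fell by 1.39 (adjusted p = 0.00976). The 3 most opposed were Ehd3 (-0.98), Sh2b3 (-0.98) and Apeh (-0.97). With the replicate means left in, they were at -0.63, -0.64 and -0.84.

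Closest to Ccr4 were Nr4a1 (0.97), an immediate early gene of T cell receptor signalling, Slamf1 (0.96), Ipo11 (0.96), Tuba1a (0.96) and Armcx3 (0.96). Before the replicate means were taken off, these correlations were 0.14, -0.17, 0.93, 0.75 and 0.28 in that order. Nr4a1 averaged 2866, 2529, 1828 and 1240.4 from SP1 to SP4, with a log2 difference of -1.24 for SP4 against SP1 (adjusted p = 0.0868, blocked 0.000221). Most opposed to Ccr4 were Ppm1m (-0.96), Ifit3 (-0.96), an interferon induced gene, and AB124611 (-0.95). With the replicate means left in, they were at -0.74, -0.27 and -0.44. Ifit3 rose by 2.30 in SP4 against SP1 (adjusted p = 0.0083).

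The profile of Ccr7 was shared by Rnf114 (0.97), Tgfbr3 (0.96), which encodes a TGF-beta co-receptor, Zdhhc15 (0.95), Cyth3 (0.95) and Tmem64 (0.95). Before the replicate means were taken off, these correlations were -0.12, 0.66, 0.91, 0.91 and 0.87 in that order. Tgfbr3 averaged 426, 752, 436 and 610.5 from SP1 to SP4, high in SP2 and SP4 like Ccr7. Most opposed to Ccr7 were Ada (-0.94), adenosine deaminase, Rhoh (-0.94) and Sh2d1a (-0.93), the adaptor SAP. With the replicate means left in, they were at -0.67, -0.91 and -0.35. Closest to Cxcr4 were Ifngr1 (0.96), a chain of the interferon gamma receptor, Fam169b (0.95), Mgat4a (0.95), Rell1 (0.94) and Bambi-ps1 (0.93). With the replicate means left in, these were 0.41, 0.86, 0.95, 0.93 and 0.85. Most opposed to Cxcr4 were Cd247 (-0.93), the zeta chain of the T cell receptor complex, Abi2 (-0.93) and Cd5 (-0.92). With the replicate means left in, they were at -0.91, -0.27 and -0.89.

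Genes around the 4 receptors were counted in SP4 against SP1, 1 probe set a gene, beside 222 higher and 54 lower of all 18193 genes with a probe set (median log2 difference -0.01), or 757 higher and 346 lower with the block. Values before the p-values in brackets are log2 differences of SP4 minus SP1. Among other chemokine and guidance receptors, 3 of 20 rose, 0 fell and 17 did not pass, with a median of 0.21. S1pr1, the receptor for thymic exit, averaged 966 in SP4 and 153 in SP1, higher by 2.58 (adjusted p = 0.00138). Cxcr3, found on effector T cells, averaged 249 in SP4 and 55.7 in SP1, higher by 1.86 (adjusted p = 0.00515), and Ccr2 was higher by 1.36 (adjusted p = 0.00365). With the block 6 rose and 1 fell. The one that fell was Plxnd1, a semaphorin receptor, which averaged 122 in SP4 and 288 in SP1 (-1.09, adjusted p = 0.182, blocked 0.00194).

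**Figure D4:**
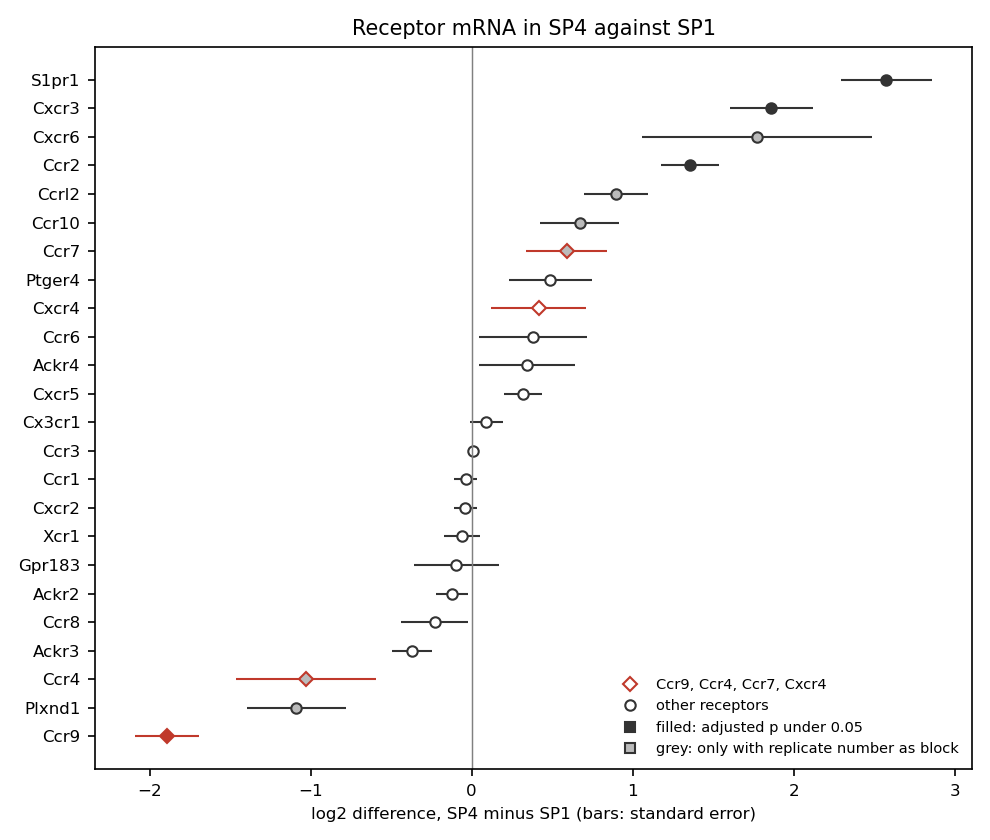
Log2 difference of SP4 minus SP1 for the 4 receptors (red diamonds, brightest probe set) and 20 other chemokine and guidance receptors (black circles), with standard errors. Filled symbols passed at an adjusted p under 0.05 and grey ones passed only with the block. Ccr9 lies lowest at -1.89 and S1pr1 highest at 2.58.

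Of regulators named for these receptors, 1 of 18 rose, 0 fell and 17 did not pass (median -0.12). Klf2, a factor needed for S1pr1 expression, averaged 1354 in SP4 and 341 in SP1, higher by 1.93 (adjusted p = 0.00854). Foxo1, which acts upstream of Klf2 and Ccr7, averaged 1306 in SP4 and 635 in SP1 (1.03, adjusted p = 0.167, blocked 0.000645). With the block 2 rose and 4 fell, the 4 being Nr4a1, Tox, Gata3 and Satb1. The E protein genes Tcf3 and Tcf12 differed by -0.26 and -0.09 and did not pass in either fit.

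Genes downstream of the receptors were counted beside the same 222 higher and 54 lower of all 18193 genes, or 757 and 346 with the block. Of 13 G protein, kinase and arrestin genes 0 passed, and Arrb1 (0.82, blocked adjusted p = 0.00142) and Grk6 (0.71, blocked 0.0261), which switch receptors off, passed with the block. Of 22 genes from the signal to cell motility, 1 rose, Rasgrp2, an activator of Rap1 and integrins, at 854 in SP4 and 340.5 in SP1 (1.27, adjusted p = 0.0482). Of 8 RGS genes, which shorten G protein signals, 0 passed, and Rgs1 (0.91) passed with the block (0.0372). The ligand genes Ccl25, Ccl17, Ccl22 and Cxcl12, the 4 measured of 8 listed, averaged between 13.5 and 86.9 in any subset and 0 passed without the block. Ccl22 averaged 34.6 in SP4 and 86.9 in SP1 (-0.90, adjusted p = 0.41, blocked 0.0439).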

How the data were processed

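RNA of 3 pooled samples of each of 4 sorted subsets was hybridised to 12 arrays as biotin-labelled cRNA. The deposited table holds 1 linear intensity per probe set and array, already corrected for background and normalized by the authors. Their methods name RMA in Bioconductor and the submitters' processing notes name MAS5, with no versions in the sources used here. Of 45037 probe sets, 34945 name 1 gene, 932 several and 9160 are unnamed here. Array medians lay between 30.5 and 32.8. The number of arrays, 3 a subset, limits how precise any value is.

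Here 16 was added to each intensity before log2, and a model with a mean for each subset was fitted over the 12 arrays (limma 3.58.1, R 4.3.3, eBayes with trend, 8 residual degrees of freedom). P-values were adjusted over all probe sets within each comparison. The fit was tested on simulated data with independent noise on each array. Such data lack the deviations that same-numbered arrays share, so this test does not cover them. For lists, each gene had its probe set of highest mean, one ending in _x_at only without another. Listed genes without a probe set of their own were not analysed here. Named genes were all receptor probe sets, for each the 5 most alike and 3 most opposed genes, the called members of each list in SP4 against SP1 (at most 4 a direction, or else the 2 of largest fold), genes the study names, and sort markers. Other list members were named after their values were seen. The receptors and lists were chosen with earlier results of these data known.

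Deviations of same-numbered arrays from their subset means correlated between 0.279 and 0.883 in all 18 pairs. Replicate numbers were therefore taken to pair the arrays, though the sample labels do not say what such arrays share. The paper's figure captions name 3 array repeats, each with SP1 to SP4 under 1 shared prefix. They do not say which replicate number each repeat is. Arrays of replicates 1 and 2 from different subsets also correlated positively, between 0.178 and 0.729, so the 2 ranges overlap. Replicate 3 correlated with the others between -0.812 and -0.388. Deviations within a subset cancel out, so negative values between different numbers are partly built in. A fit with this block (6 residual degrees of freedom) is given where it changed a call. Other alternatives were an offset of 1 or 64, quantile normalization, a mean of 50 or more, no trend, only the subsets compared, and leaving out each array or replicate 3. The blocked fits that left out arrays were added after seeing the data.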

Additional observations from a re-analysis of the deposited data

How the results depend on the processing

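Without the replicate block, 2 receptor probe sets passed in each comparison of SP4 with an earlier subset, and with it 6 passed against SP1, 6 against SP2 and 4 against SP3. Against SP2, 1 passed when only the subsets compared were fitted. Against SP3, 1 passed with an offset of 1, with probe sets of mean 50 or more, or without the trend, and 0 when only the subsets compared were fitted. The block also brought past the threshold Ccr4 for SP4 against SP1 (-1.03, adjusted p = 0.00106) and by slope (-0.34, adjusted p = 0.000792), Ccr7 for SP4 against SP1 (0.59, adjusted p = 0.0432) and the slope of Cxcr4 (0.19, adjusted p = 0.0499). It took no receptor call away.

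Leaving out 1 array or all of replicate 3 gave 1 to 3 calls against SP2 and 0 to 3 against SP3. The slope of Ccr4 then lay between -0.42 and -0.23, and it passed without replicate 3 (adjusted p = 0.0384). SP2 against the mean of SP1 and SP3 lay between -0.20 and 0.012 for Ccr9 and between -0.33 and 0.49 for Ccr4. SP3 against SP2 lay between -0.17 and 0.15 for 1427419_x_at, -0.33 and 0.21 for 1421920_a_at, -1.05 and 0.50 for 1421919_a_at, -0.088 and 0.46 for 1436065_at, -0.13 and 0.17 for 1442758_at and -0.75 and 0.061 for Ccr4. SP2 against SP1 lay between -1.05 and 0.26 for 1421919_a_at, -0.38 and 0.15 for 1442758_at and -0.59 and 0.22 for Ccr4. SP3 against SP1 lay between -0.33 and 0.26 for 1442758_at and -0.086 and 0.40 for Ccr7, and SP4 against SP3 between -0.16 and 0.28 for Cxcr4. None of these differences was called with all 12 arrays and no block. The cause was not tested. Ccr4 and 1442758_at are dim, which limits what their small differences can show.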

Other observations

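In the RefSeq gene order (GRCm38.p6), Lztfl1 is the gene next to Ccr9. It ranked second of 7182 genes in likeness to Ccr9, and its place beside Ccr9 was looked up after its values were seen. Its brightest probe set read 716, 1029.7 and 1203 in SP1, 706, 871 and 796 in SP2, 437, 709.9 and 684 in SP3, and 218, 298 and 311 in SP4, so SP4 lay below every other array. Of its 5 probe sets, 4 were lower in SP4 than in SP1 at an adjusted p under 0.05. For SP4 against SP3 none of the 5 passed without the block, and the brightest differed by -1.09 (adjusted p = 0.196).

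On the other side of Ccr9, Fyco1 differed by 0.64 between SP4 and SP1 (adjusted p = 0.667, blocked 0.0144), and Cxcr6, the next receptor gene, by 1.77 (adjusted p = 0.507, blocked 0.000301). Igfbp4, 2 genes from Ccr7 in this order, was higher in SP4 than in SP1 by 2.08 (adjusted p = 0.000174). Cd55, 3 genes from Cxcr4 and dim (mean 38.8), was higher in SP4 than in SP1 by 1.77 (adjusted p = 0.00117). The other measured genes among the 3 on each side of Ccr7 and of Cxcr4 passed in neither fit. Of the 6 genes nearest to Ccr4, 0 passed in SP4 against SP1 with or without the block.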
